A study of Homo sapiens with 36 samples.

Results

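BAALC (brain and acute leukemia, cytoplasmic) was examined in human neural stem cells (hNSC) in which MEIS1 or MEIS2 had been activated or knocked out. It was 1 of 28516 genes in the count table, and it was chosen because its level, in CPM (counts scaled to the size of the library), was higher with either activation and lower with either knockout. The choice used its level in all 6 conditions, so differences in that level between conditions are described with their errors and without tests. The data were mRNA sequencing counts from 6 conditions with 6 libraries each, 36 in all. In MEIS1-OE and MEIS2-OE (OE, overexpression) the cells received lentiviruses for CRISPR activation, in which a Cas9 that cannot cut carries activator domains to the promoter of 1 gene. In MEIS1-KO and MEIS2-KO (KO, knockout) they received lentiviruses with cutting Cas9 and guide RNAs against the coding sequence of 1 gene. A guide RNA that has no target was used with each system for the controls, named ctrl-OE and ctrl-KO. Every condition, controls included, was thus transduced and carried a Cas9 protein, and all cells were harvested 48 h after transduction.

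The hNSC came from 1 commercial source, and the labels do not say whether replicates were separate cultures, so p-values measure the spread between these libraries, which may be technical. Knockout cells were a transduced population and not a clone, so the mRNA of the targeted gene is a mean over edited and unedited cells. In such bulk RNA, fewer cells with a transcript and less transcript per cell cannot be told apart.

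BAALC encodes a small protein without enzymatic activity that is anchored to membranes by fatty acids. It is known from neural tissue and from blood progenitor cells, where it is lost as the cells mature, and high BAALC mRNA in acute myeloid leukemia is associated with a poor outcome. In leukemia cells the protein has been described to bind the kinase encoded by MAP3K1, to favour ERK signalling and to hold the transcription factor KLF4 outside the nucleus. MEIS1 and MEIS2 are homeodomain transcription factors that act with PBX and HOX proteins, and MEIS1 is itself a cofactor in leukemia.

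The guides are shown because they define what was cut in the knockouts. Each is written 5′ to 3′ in lower case, followed by the genomic PAM in capitals, the short motif that Cas9 needs next to its target. They were matched to GRCh37. MEIS1-g2 lay at chr2:66691310-66691332 on the plus strand and MEIS1-g3 at chr2:66739346-66739368 on the plus strand, both in coding exons of MEIS1. MEIS2-g2 lay at chr15:37376024-37376046 on the minus strand in a coding exon of MEIS2, and MEIS2-g5 at chr15:37376084-37376106 on the plus strand, at an exon or its border.
MEIS1-g2: ggtggccacacgtcacacagTGG
MEIS1-g3: aaaaagcgtcacaaaaagcgTGG
MEIS2-g2: cccactcagcaggcaccccaGGG
MEIS2-g5: gttctgatgtcaggataccaAGG
Each had 1 exact match on its chromosome. Within BAALC and 10 kb to either side, the closest site with an NGG motif differed from the 20 guide bases at 7, 6, 7 and 8 positions, in the order listed.

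BAALC lies on chromosome 8 from 104152941 to 104242533 on the plus strand (GRCh37, ENSG00000164929.17_8), where the annotation gives 9 transcripts, 5 of them coding. Its first part overlaps the antisense transcript BAALC-AS2, listed in the table as C8orf56, which had at most 10 counts in a library against 1084 to 2805 for BAALC. A second antisense transcript, BAALC-AS1, spans 104165622 to 104311000 on the minus strand, overlaps the larger part of BAALC and was not analysed here. The gene also hosts the microRNA gene MIR3151, which had 1 count over all 36 libraries, in a protocol that selects poly-A RNA and does not capture mature microRNAs. The strand setting used for counting is not given in the sources used here, so it is not known whether the counts of BAALC hold reads of BAALC-AS1.

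Gene counts summed to 15429985 to 22940493 in a library (median 20324720), and no library pair within a condition agreed within sampling noise. Of the neural stem cell markers, 10 of 11 reached a mean of 1 CPM, and their summed level ranged from 3059 to 6240 CPM over all libraries. Blood and microglia markers summed to 1.21 to 4.19 CPM, and the blood marker PTPRC had at most 2 counts in a library. Summed neuron markers ranged from 472 to 1138 CPM and summed mesenchymal markers from 337 to 1130 CPM. The pluripotent cell marker POU5F1 had at most 7 counts and NANOG at most 3, whereas LIN28A averaged 301 CPM in ctrl-OE and 492 CPM in ctrl-KO.

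The activated and the cut genes were checked first. MEIS1 was at 15.7 to 18.8 CPM in ctrl-OE and at 287 to 323 CPM in MEIS1-OE, 17.4-fold higher. MEIS2 was at 20.5 to 24.1 CPM in ctrl-OE and at 793 to 852 CPM in MEIS2-OE, 36.5-fold higher. In the knockouts, MEIS1 was at 23.7 to 28.0 CPM in ctrl-KO and 6.43 to 11.2 CPM in MEIS1-KO, 65.2% lower, and MEIS2 was at 23.5 to 27.4 CPM in ctrl-KO and 10.5 to 13.4 CPM in MEIS2-KO, 53.2% lower. No library overlapped between a condition and its control in these 4 comparisons, so each targeted gene followed its label. The other paralog was not called in any of them. MEIS2 had -0.02 on the log2 scale in MEIS1-OE and -0.15 in MEIS1-KO (edgeR, adjusted p = 0.146). MEIS1 had -0.08 in MEIS2-OE and -0.18 in MEIS2-KO (edgeR, adjusted p = 0.1075). In each knockout, 5 of 6 libraries had less of the other paralog than every ctrl-KO library.

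BAALC was well detected in every library. In ctrl-OE its lowest, median and highest levels were 50.4, 51.1 and 57.0 CPM, the lowest of the 6 conditions. In MEIS1-OE they were 95.1, 98.9 and 103 CPM. In MEIS2-OE they were 89.1, 95.1 and 104 CPM. Every library of both activations was above every ctrl-OE library, and the 2 activations overlapped each other over most of their range.

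In the knockout system BAALC started from a higher level. In ctrl-KO its lowest, median and highest levels were 117, 133 and 143 CPM, the highest of the 6 conditions. In MEIS1-KO they were 89.5, 108 and 121 CPM. In MEIS2-KO they were 92.8, 99.3 and 108 CPM. All MEIS2-KO libraries and 5 of 6 MEIS1-KO libraries were below every ctrl-KO library, and the remaining MEIS1-KO library, replicate 1, overlapped with the control. At 121 CPM it was below the ctrl-KO library of the same replicate number, at 139 CPM.

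**Figure D1:**
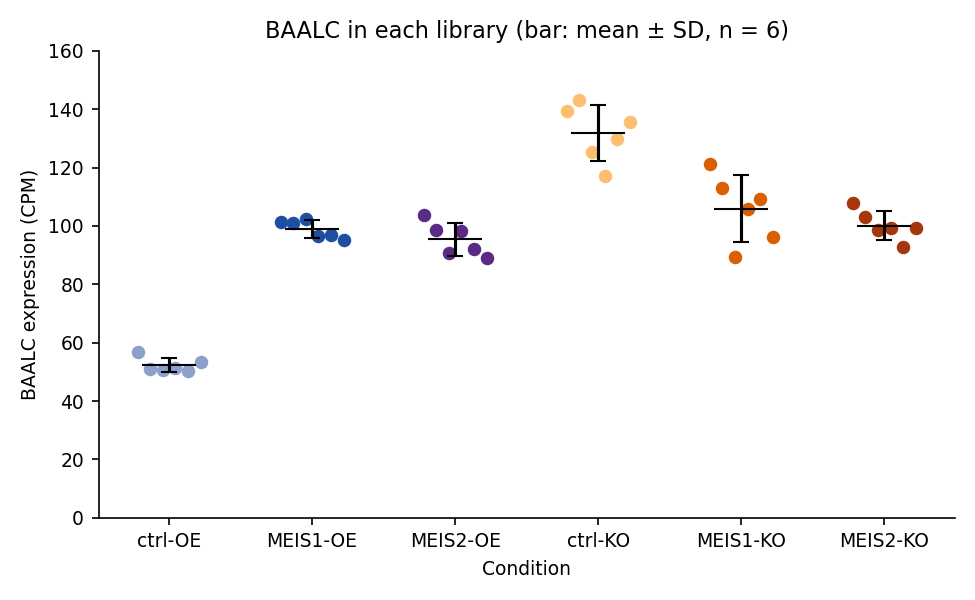
BAALC expression in CPM (vertical axis, starting at 0) in each library of the 6 conditions (horizontal axis), with points for libraries and black bars for the mean ± SD (n = 6). The control libraries of the activation system lie between 50.4 and 57.0 CPM and those of the knockout system between 117 and 143 CPM, and the 4 conditions with MEIS guides lie between 89.1 and 121 CPM.

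BAALC was 1.89-fold higher in MEIS1-OE than in ctrl-OE, at 98.9 ± 3.09 against 52.3 ± 2.51 CPM (SD, n = 6), which is 0.92 on the log2 scale with a standard error of 0.0561. It was 1.82-fold higher in MEIS2-OE, at 95.4 ± 5.66 CPM, a log2 fold change of 0.87 with the same standard error. It was 19.7% lower in MEIS1-KO than in ctrl-KO, at 106 ± 11.5 against 132 ± 9.61 CPM, a log2 fold change of -0.32 with a standard error of 0.0550. It was 24.0% lower in MEIS2-KO, at 100.1 ± 5.03 CPM, a log2 fold change of -0.40 with a standard error of 0.0551. Ranked by fold change among the 19689 genes tested, BAALC was number 797 from the top in MEIS1-OE and number 570 in MEIS2-OE, and number 1856 and number 1588 from the bottom in MEIS1-KO and MEIS2-KO. Genes whose libraries did not overlap in the same direction made up 3.17% of tested genes in MEIS1-OE, 1.05% in MEIS2-OE, 0.625% in MEIS1-KO and 4.05% in MEIS2-KO. These shares are background, and because BAALC was chosen on these comparisons nothing is read from them.

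Neural stem cell markers moved in some of the same comparisons. Of the 11 markers, 3 fell and 0 rose in MEIS1-OE (edgeR, adjusted p under 0.05; 2 rose at an unadjusted p under 0.05 and 0 with DESeq2), where 3.58% of all tested genes fell and 5.52% rose. In MEIS2-OE 1 fell and 0 rose (edgeR; 0 also rose at an unadjusted p under 0.05 and with DESeq2), where 0.279% fell and 1.07% rose. In MEIS1-KO 1 fell (PAX6) and 1 rose (VIM), where 0.432% fell and 1.03% rose. In MEIS2-KO 5 fell and 1 rose, where 5.98% fell and 4.04% rose. HES5, a target of NOTCH signalling, had the most calls. It had a log2 fold change of -2.96 in MEIS1-OE (edgeR, adjusted p = 0.00236), -2.79 in MEIS2-OE (edgeR, adjusted p = 0.0153) and -1.60 in MEIS2-KO (edgeR, adjusted p = 0.0362), from at most 35 counts in a library. The call in MEIS2-OE was lost without replicate number 4 or 6, and that in MEIS2-KO without number 2, 3, 4 or 5. PAX6, a transcription factor of neural progenitors, fell in MEIS2-KO by 0.52 (edgeR, adjusted p = 0.000686), and VIM, an intermediate filament, rose there by 0.33 (edgeR, adjusted p = 0.00114). SOX1, a further transcription factor of neural progenitors, had -0.31 in MEIS1-OE (edgeR, adjusted p = 0.0342) and -0.33 in MEIS2-KO (edgeR, adjusted p = 0.0159), and both calls were lost without replicate number 2 or 4, among others. The summed marker level was 3128 to 4059 CPM in ctrl-OE, 3432 to 4366 CPM in MEIS1-OE and 3059 to 3755 CPM in MEIS2-OE. It was 4566 to 5111 CPM in ctrl-KO, 4892 to 6240 CPM in MEIS1-KO and 5126 to 6240 CPM in MEIS2-KO. VIM and NES made up 81.5% of this sum in ctrl-KO and 85.9% in MEIS2-KO, and the other 9 members summed to 869 to 935 CPM in ctrl-KO and to 740.4 to 823 CPM in MEIS2-KO.

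Markers of other cell types also moved in these comparisons. In MEIS2-KO 2 of 6 mesenchymal and 2 of 4 endothelial markers rose (edgeR, adjusted p under 0.05). Rises were also called for 1 of 7 oligodendrocyte lineage and 1 of 7 blood and microglia markers. In contrast, 1 of 6 astrocyte and 1 of 7 neuron markers fell. Of all tested genes 4.04% rose and 5.98% fell in MEIS2-KO. COL1A1, a collagen chain, rose there by 1.06 on the log2 scale (edgeR, adjusted p = 0.00114), KDR, a receptor for vascular endothelial growth factor, by 0.42 (edgeR, adjusted p = 0.00101), and CSPG4, a proteoglycan, by 0.67 (edgeR, adjusted p = 0.00814). COL1A2 rose by 0.27 (edgeR, adjusted p = 0.0390) and CDH5, a cadherin of endothelium, by 0.36 (edgeR, adjusted p = 0.0113), and without replicate number 4 both calls were lost, that of COL1A2 also without number 1, 2, 3 or 5. SLC1A3, a glutamate transporter of astrocytes and radial glia, fell in MEIS2-KO by 0.45 (edgeR, adjusted p = 0.0140, not called without replicate number 2) and in MEIS1-OE by 0.50 (edgeR, adjusted p = 0.0140, not called without number 4 or 6). In MEIS1-KO COL1A1 rose by 0.82 (edgeR, adjusted p = 0.0408), a call lost with any 1 replicate number left out. The activations had rises too. In MEIS1-OE the mesenchymal marker PDGFRB rose by 0.30 (edgeR, adjusted p = 0.00548) and the neuron marker SYT1 by 0.26 (edgeR, adjusted p = 0.00517). In MEIS2-OE KDR rose by 0.36 (edgeR, adjusted p = 0.0137). The blood marker CD34 rose in both activations and is described below. Of all tested genes 5.52% rose in MEIS1-OE and 1.07% in MEIS2-OE. Summed endothelial markers were at 148 to 162 CPM in ctrl-KO and 182 to 229.8 CPM in MEIS2-KO, and summed mesenchymal markers at 702 to 914 and 778 to 1013 CPM. The part of all these markers in the level of BAALC was not tested.

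The next comparison sets the paralogs side by side. BAALC was higher in MEIS1-OE than in MEIS2-OE by 0.05 on the log2 scale, with a 95% interval from -0.06 to 0.16. It was higher in MEIS1-KO than in MEIS2-KO by 0.08, with a 95% interval from -0.03 to 0.19. The intervals describe the spread between libraries and are not read as tests, and neither shows that the paralogs acted alike.

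The controls also differed from each other. BAALC was 2.52-fold lower in ctrl-OE than in ctrl-KO, a log2 fold change of -1.33 with a standard error of 0.0564, and all 6 libraries of ctrl-OE were below all of ctrl-KO. A gene chosen as higher than ctrl-OE and lower than ctrl-KO tends to have a low ctrl-OE and a high ctrl-KO, so this gap is given as a description. It is a comparison in which 51.4% of tested genes were called, 23.9% lower and 27.5% higher in ctrl-OE, and in which 16.0% were lower without overlap. Of the neural stem cell markers, 8 of 11 were also lower in ctrl-OE and 0 were higher (edgeR, adjusted p under 0.05; 0 also at an unadjusted p under 0.05 and with DESeq2). Markers of other cell types moved both ways. Lower in ctrl-OE were 4 of 4 endothelial, 4 of 7 neuron, 4 of 6 astrocyte and 3 of 6 mesenchymal markers. Also lower were 2 of 7 oligodendrocyte lineage and 1 of 3 pluripotent cell markers. Higher in ctrl-OE were 2 of 7 oligodendrocyte lineage and 2 of 7 blood and microglia markers. So were 1 of 6 astrocyte, 1 of 6 mesenchymal and 1 of 3 pluripotent cell markers. MEIS1 itself was lower in ctrl-OE than in ctrl-KO, at a log2 fold change of -0.53 (edgeR, adjusted p = 5.84e-08), and MEIS2 at -0.19 (edgeR, adjusted p = 0.00159). The viral system and any other difference between the experiments cannot be told apart in this comparison. The gap between the controls was larger than the distance from either control to a condition with MEIS guides.

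In the order of mean levels, ctrl-OE was followed by MEIS2-OE, MEIS1-OE, MEIS2-KO, MEIS1-KO and ctrl-KO. Neighbours in the middle of that order overlapped. After this order had been seen, BAALC was compared across the systems within each targeted gene. BAALC in MEIS1-OE differed from MEIS1-KO by -0.10 on the log2 scale, with a standard error of 0.0552, and by -0.15 without the libraries of replicate number 3. In MEIS2-OE it differed from MEIS2-KO by -0.07, with a standard error of 0.0552.

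The amount of MEIS mRNA and that of BAALC were set side by side. The sum of MEIS1 and MEIS2 averaged 40.4 CPM in ctrl-OE, 332 CPM in MEIS1-OE and 841 CPM in MEIS2-OE, while BAALC had nearly the same level in both activations. It averaged 51.5 CPM in ctrl-KO, 32.2 CPM in MEIS1-KO and 34.8 CPM in MEIS2-KO. MEIS2-KO, with less MEIS mRNA than ctrl-OE, had a higher BAALC level than ctrl-OE, so the order of BAALC across the 2 systems was not the order of MEIS mRNA. Per unit of log2 change in the mRNA of the targeted gene, BAALC differed by 0.223 in MEIS1-OE, 0.167 in MEIS2-OE, 0.207 in MEIS1-KO and 0.361 in MEIS2-KO. The mRNA of a cut gene does not measure the loss of its protein, so these values are not compared between activations and knockouts.

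**Figure D2:**
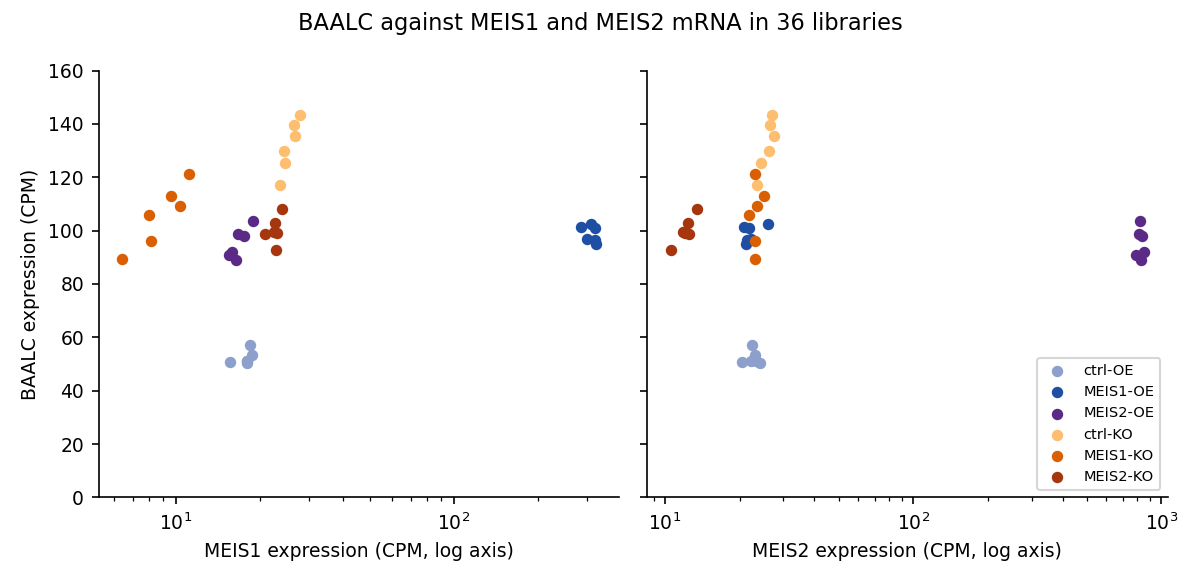
BAALC expression in CPM (vertical axis) against MEIS1 (left) and MEIS2 (right) expression in CPM on log axes, with 1 point for each of the 36 libraries, coloured by condition. The activated gene reaches 287 to 323 CPM for MEIS1 and 793 to 852 CPM for MEIS2 while BAALC stays between 89.1 and 104 CPM, and the knockout libraries form a sloped group at the left of each panel.

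Variation between libraries of 1 condition was not used in choosing BAALC. Over the 6 libraries of MEIS1-KO, BAALC and MEIS1 mRNA varied together in log2 CPM, with Pearson's r = 0.926 (exact permutation test over the 720 pairings, two-sided, p = 0.00833, adjusted over 4 relations p = 0.0333). Spearman's rho was 0.886 (exact permutation p = 0.0333, adjusted p = 0.133). Without the 2 libraries farthest from the median MEIS1 level r was 0.694, from 4 libraries. In MEIS2-KO, BAALC and MEIS2 had r = 0.931 (exact permutation p = 0.0306, adjusted p = 0.0611) and rho = 0.60 (exact permutation p = 0.242, adjusted p = 0.322). Without the 2 farthest libraries r was 0.193, so that this relation rested on them. In MEIS1-OE r was -0.439 (exact permutation p = 0.392, adjusted p = 0.522) and rho was -0.714 (exact permutation p = 0.136, adjusted p = 0.272), and without the 2 farthest libraries r was -0.838. In MEIS2-OE r was 0.0897 (exact permutation p = 0.883, adjusted p = 0.883) and rho was -0.0857 (exact permutation p = 0.919, adjusted p = 0.919), and without the 2 farthest libraries r was -0.0692. Among 13463 genes with a mean of at least 1 CPM, 148 (1.10%) had an r with MEIS1 in MEIS1-KO as high as BAALC, and 38 (0.282%) had one with MEIS2 in MEIS2-KO. Both values of a library share its depth and scaling, and the extent of editing in each library was not measured here. The permutation takes the libraries as interchangeable. Replicate 1 was highest for BAALC and the targeted gene in MEIS1-KO (121 and 11.2 CPM) and in MEIS2-KO (108 and 13.4 CPM). In ctrl-KO, without a MEIS guide, BAALC and MEIS1 had r = 0.937, as described at the end. The part of the replicate number in these relations was not tested.

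Next, the genes with the same 4 directions were counted. With an adjusted p under 0.05 in every comparison, 7 of 19689 genes (0.0356%) were higher in both activations and lower in both knockouts, and 1 gene (0.00508%) showed the reverse. The 7 became 4 with only the groups compared in the fit, 3 without replicate number 3 or 5 and 4 without number 2 or 6, and the 1 became 0 in 5 of 13 alternatives. BAALC is 1 of the 7, which restates its choice. By sign alone, without any threshold, 1933 genes had the directions of BAALC. The comparisons share their control libraries, so the counts are given as descriptions. Background shares of called genes were 9.10% in MEIS1-OE, 1.35% in MEIS2-OE, 1.46% in MEIS1-KO and 10.0% in MEIS2-KO.

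Of the 6 companions, ST8SIA4, which encodes a polysialyltransferase that modifies the neural cell adhesion molecule, was at 30.2 ± 1.99 CPM in ctrl-OE, 46.7 ± 2.52 CPM in MEIS1-OE and 46.5 ± 2.48 CPM in MEIS2-OE (SD, n = 6). In the knockout system it was at 83.7 ± 3.24 CPM in ctrl-KO, 68.3 ± 8.59 CPM in MEIS1-KO and 62.4 ± 2.77 CPM in MEIS2-KO. SPRY2, a feedback inhibitor of receptor tyrosine kinase and ERK signalling, differed by log2 fold changes of 0.46 and 0.53 in MEIS1-OE and MEIS2-OE and of -0.21 and -0.22 in MEIS1-KO and MEIS2-KO. KIT, the receptor for stem cell factor and a marker of blood progenitors, was low in these cells. It was at 4.93 ± 0.252 CPM in ctrl-OE, 8.07 ± 0.626 CPM in MEIS1-OE, 7.29 ± 0.469 CPM in MEIS2-OE, 8.24 ± 0.381 CPM in ctrl-KO, 6.56 ± 0.874 CPM in MEIS1-KO and 5.71 ± 0.920 CPM in MEIS2-KO.

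Of the 6 companions, KIT, PTX3 and SSFA2 kept all 4 calls under only 7 of 13 alternatives. The other companions had smaller differences in the activations. FAM167A differed by log2 fold changes of 0.28, 0.38, -0.32 and -0.35, in the order MEIS1-OE, MEIS2-OE, MEIS1-KO and MEIS2-KO. PTX3, a secreted pattern recognition protein, differed by 0.25, 0.33, -0.24 and -0.33. SSFA2, which encodes a protein that positions inositol trisphosphate receptors, differed by 0.17, 0.22, -0.18 and -0.26. The gene with the reverse directions was FRZB, a secreted WNT antagonist, at -0.31, -0.38, 0.36 and 0.45. BAALC had the highest log2 fold change of these 8 genes in both activations, and KIT the lowest in both knockouts. Differences between genes were not tested.

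**Figure D3:**
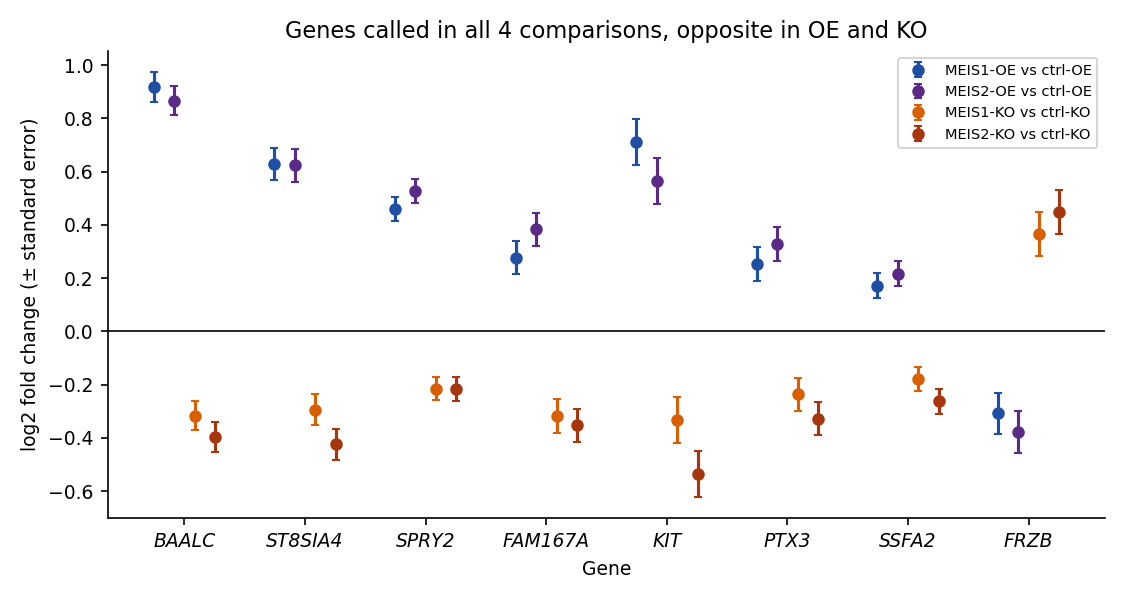
Log2 fold change against the control of the same system (vertical axis, points with standard errors from edgeR) of the 8 genes called in all 4 comparisons with opposite directions in activation and knockout (horizontal axis), coloured by comparison. BAALC has the highest points in the activations, at 0.92 and 0.87, and FRZB is the gene with the reverse directions.

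Without overlap of libraries in all 4 comparisons, 4 genes (0.0203%) remained, namely ST8SIA4, SPRY2, FAM167A and SSFA2, and BAALC was not among them because of the 1 overlapping MEIS1-KO library. All 7 were lower in ctrl-OE than in ctrl-KO, with log2 differences from -0.28 for FAM167A to -1.63 for PTX3, and FRZB was higher by 0.72. Control libraries enter both kinds of comparison with opposite effect in the activations and the knockouts, so a low ctrl-OE and a high ctrl-KO favour these directions and the comparison between the controls is not independent of them.

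The genes most like BAALC were ranked by Pearson's r over the 36 libraries in log2 CPM, after the mean of the control of the same system had been subtracted. The 36 libraries fall into 6 conditions, so r is a description of shared differences between conditions and carries no p. ST8SIA4 was first, with r = 0.982, followed by SPRY2 (0.962), SPOCK1 (0.959), IGFBPL1 (0.959), KIT (0.953), LPAR1 (0.952), EPHA4 (0.937), RASSF2 (0.920), VGLL3 (0.914) and FAM167A (0.913). The median r over 13463 genes was 0.0191 and the 99th percentile was 0.744. The 5 lowest were F13A1 (-0.938), FRMD8 (-0.905), FRZB (-0.894), CHST7 (-0.863) and NSG1 (-0.853).

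All 10 of the most similar genes were called in both activations, 7 of them in at least 1 knockout and 4 in both knockouts (edgeR, adjusted p under 0.05). These calls are a description, since likeness was measured over the same libraries, and the systems were not compared by a test. Of all tested genes, 9.10% were called in MEIS1-OE, 1.35% in MEIS2-OE, 1.46% in MEIS1-KO and 10.0% in MEIS2-KO. The 3 genes without a call in the knockouts were VGLL3, EPHA4 and IGFBPL1. VGLL3, a cofactor of TEAD transcription factors, differed by log2 fold changes of 1.34 in MEIS1-OE and 1.85 in MEIS2-OE, more than BAALC, but by -0.03 in MEIS1-KO (edgeR, adjusted p = 0.960) and -0.19 in MEIS2-KO (edgeR, adjusted p = 0.301). EPHA4, an ephrin receptor, differed by 0.71 and 0.90 in the activations, and by -0.17 (edgeR, adjusted p = 0.503) and -0.21 (edgeR, adjusted p = 0.134) in the knockouts. IGFBPL1 differed by 0.63 and 0.52, and by -0.05 (edgeR, adjusted p = 0.657) and -0.03 (edgeR, adjusted p = 0.677). SPOCK1, a secreted proteoglycan, was nearer to BAALC, at 0.94, 0.61, -0.22 (edgeR, adjusted p = 0.0879) and -0.39. LPAR1, a receptor for lysophosphatidic acid, differed by 0.29, 0.37, -0.09 (edgeR, adjusted p = 0.408) and -0.18. RASSF2, a RAS association domain protein, had differences of like size in both systems, at 0.17, 0.17, -0.13 (edgeR, adjusted p = 0.110) and -0.19.

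Of the 5 least similar genes, 4 were called in both activations, 3 in at least 1 knockout and 1 in both knockouts. Calls covered 9.10% of all tested genes in MEIS1-OE, 1.35% in MEIS2-OE, 1.46% in MEIS1-KO and 10.0% in MEIS2-KO. These counts too are a description. F13A1, which encodes the catalytic chain of a coagulation factor, differed by -1.08 and -0.73 in the activations, and by 0.19 (edgeR, adjusted p = 0.0665) and 0.12 (edgeR, adjusted p = 0.154) in the knockouts. FRMD8 differed by -0.63, -0.50, 0.20 (edgeR, adjusted p = 0.555) and 0.30 (edgeR, adjusted p = 0.0891). CHST7, a sulfotransferase, differed by -0.33, -0.42, 0.23 (edgeR, adjusted p = 0.318) and 0.35. NSG1, a neuronal endosomal protein, differed by -0.62, -0.42 (edgeR, adjusted p = 0.219), 0.34 (edgeR, adjusted p = 0.313) and 0.60.

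**Figure D4:**
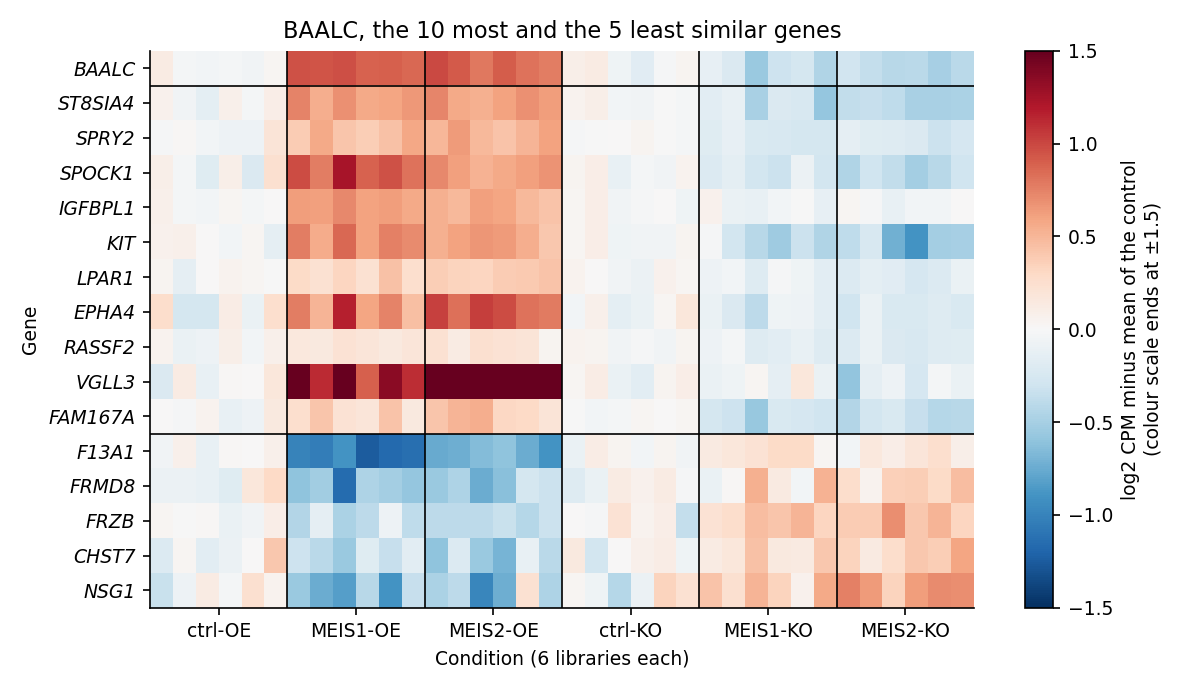
Log2 CPM minus the mean of the control of the same system, as colour from -1.5 (blue) to 1.5 (red), for BAALC, the 10 most similar and the 5 least similar genes (rows) in 36 libraries (columns, 6 per condition). The columns of both activations have the strongest colours in most rows, VGLL3 goes past the end of the scale, and the knockout columns are paler, with BAALC, ST8SIA4 and KIT among the bluest there.

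The choice of genes depended on the measure. With Spearman's rho 4 of the 10 were shared, without subtraction of the control 7, and over the 4 mean differences alone 0, where the 99th percentile of r was already 0.993.

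Genes near BAALC were compared with it, because a change over a whole region would include them. Within 1 Mb of its start 55 genes are annotated in GRCh37 and 11 were tested, of which 10 do not overlap BAALC. In MEIS1-OE, 2 of the 11 rose and 0 fell (edgeR, adjusted p under 0.05; 1 fell at an unadjusted p under 0.05 and 1 with DESeq2), where 5.52% of all tested genes rose and 3.58% fell. KLF10, a zinc finger transcription factor 485 kb upstream, rose by 0.56 on the log2 scale (edgeR, adjusted p = 0.000917), and SLC25A32, a mitochondrial carrier of folate 275 kb downstream, by 0.18 (edgeR, adjusted p = 0.0178). In MEIS2-OE 0 of 11 were called by edgeR and 0 by DESeq2, with 4 at an unadjusted p under 0.05, all higher, where 1.35% of all tested genes were called. In MEIS1-KO 0 were called by either tool, with 2 higher at an unadjusted p under 0.05, where 1.46% were called. In MEIS2-KO 0 were called by either, with 1 higher and 2 lower at an unadjusted p under 0.05, where 10.0% were called. The median log2 fold change of the 11 was 0.14 in MEIS1-OE, 0.13 in MEIS2-OE, -0.03 in MEIS1-KO and -0.09 in MEIS2-KO. Over all tested genes the medians lay between -0.011 in MEIS2-KO and 0.003 in MEIS1-KO. The nearest tested protein-coding genes were ATP6V1C1, a subunit of the proton pump of acidic organelles, and FZD6, a WNT receptor. ATP6V1C1, 120 kb upstream, had log2 fold changes from -0.10 to 0.01 over the 4 comparisons. FZD6, 158 kb downstream, had 0.21, 0.27, -0.11 and -0.16, none of them called. SLC25A32 had the same directions, with 0.17 in MEIS2-OE, -0.06 in MEIS1-KO and -0.10 in MEIS2-KO, also not called. DCAF13, 274 kb downstream, had 0.14, 0.09, -0.02 and -0.04, none called. Other neighbours were higher in both knockouts without a call, such as RRM2B (0.17 and 0.13) and CTHRC1 (0.57 and 0.36). A shared change of the region was not tested.

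The antisense transcript BAALC-AS2 had log2 fold changes of 0.88 (edgeR, adjusted p = 0.154) and 0.73 (edgeR, adjusted p = 0.709) in the activations from at most 10 counts per library. It was lower in ctrl-OE than in ctrl-KO, at 0.147 against 0.303 CPM (edgeR, adjusted p = 0.0246). Between ctrl-OE and ctrl-KO, 2 of the 11 neighbours were higher and 6 lower, BAALC-AS2 among the latter, where 27.5% of all tested genes were higher and 23.9% lower.

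**Figure D5:**
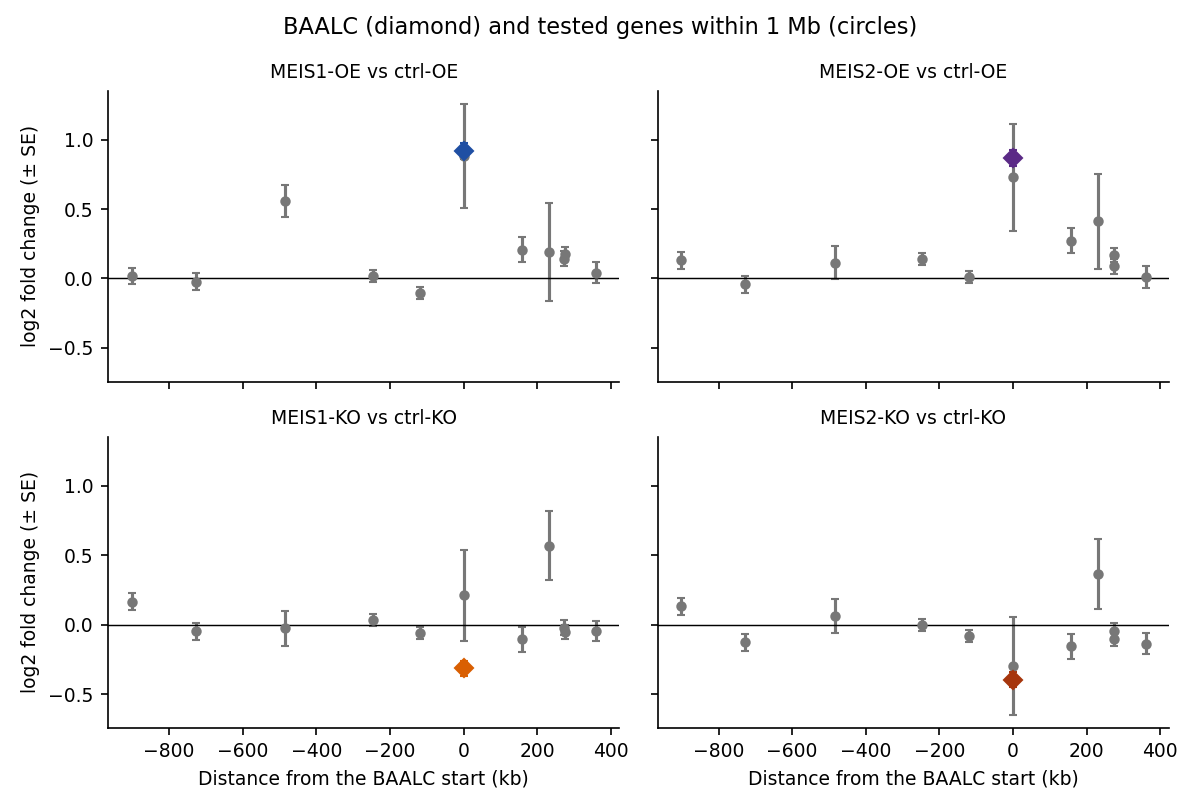
Log2 fold change with standard error (vertical axis) of BAALC (coloured diamond) and the 11 tested genes within 1 Mb (grey circles) against the distance of their start from that of BAALC in kb (horizontal axis), in 4 comparisons. BAALC lies at 0.92, 0.87, -0.32 and -0.40, and the circle with the wide error bar at its position is BAALC-AS2, with at most 10 counts per library.

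Genes of the pathway in which BAALC has been placed were taken from a list of 21 genes of ERK signalling and KLF4. In MEIS1-OE 5 rose and 0 fell (edgeR, adjusted p under 0.05; 1 fell at an unadjusted p under 0.05 and 0 with DESeq2), where 5.52% of all tested genes rose and 3.58% fell. In MEIS2-OE 3 rose and 0 fell (edgeR; 0 also fell at an unadjusted p under 0.05 and with DESeq2), where 1.07% rose and 0.279% fell. In MEIS1-KO 1 rose and 1 fell, where 1.03% rose and 0.432% fell, and in MEIS2-KO 3 rose and 3 fell, where 4.04% rose and 5.98% fell. The median log2 fold change of the list was 0.06 in MEIS1-OE, 0.0005 in MEIS2-OE, -0.01 in MEIS1-KO and 0.02 in MEIS2-KO. Over all tested genes the medians lay between -0.011 in MEIS2-KO and 0.003 in MEIS1-KO.

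MAP3K1, the kinase reported to bind BAALC, averaged 38.1 ± 2.63 CPM in ctrl-OE, 54.9 ± 3.20 CPM in MEIS1-OE and 37.4 ± 2.19 CPM in MEIS2-OE. It rose in MEIS1-OE by 0.53 on the log2 scale (edgeR, adjusted p = 4.72e-08), and had -0.02 in MEIS2-OE (edgeR, adjusted p = 0.986). KLF4 had at most 3 counts in a library, so no level of it could be compared. PHLDA1, a gene induced by growth factors, rose in both activations, by 0.23 (edgeR, adjusted p = 0.0223) and 0.31 (edgeR, adjusted p = 0.00510). SPRED1, an inhibitor of RAS and ERK signalling, rose in MEIS2-OE by 0.25 (edgeR, adjusted p = 0.0297) and fell in MEIS2-KO by 0.28 (edgeR, adjusted p = 0.00343). IER3, an early response gene, rose in MEIS1-KO by 0.51 (edgeR, adjusted p = 0.0484) and in MEIS2-KO by 0.70 (edgeR, adjusted p = 0.000897), opposite to BAALC. DUSP6, a phosphatase that is a common readout of ERK activity, had log2 fold changes of 0.19, 0.22, 0.13 and 0.15, none of them called. Other genes induced by ERK signalling were called in part. ETV4, a transcription factor, rose in MEIS1-OE by 0.29 (edgeR, adjusted p = 0.0268) and in MEIS2-KO by 0.32 (edgeR, adjusted p = 0.0160). DUSP5, a phosphatase of ERK, rose in MEIS1-OE by 0.30 (edgeR, adjusted p = 0.0371). SPRY4, an inhibitor related to SPRY2, rose in MEIS2-KO by 0.47 (edgeR, adjusted p = 0.000569). EGR1, FOS, ETV5 and DUSP4 were not called in any of the 4 comparisons. In the order MEIS1-OE, MEIS2-OE, MEIS1-KO and MEIS2-KO, EGR1 had -0.44, 0.0005, -0.23 and -0.34. FOS had -0.34, -0.12, -0.30 and -0.30, ETV5 0.06, -0.05, 0.03 and 0.02, and DUSP4 0.03, -0.05, 0.12 and 0.17.

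Genes that accompany BAALC in leukemia and blood progenitors formed a list of 21, of which 16 were tested. WT1, RUNX1, HOPX, HOXA9 and HOXA10 had at most 1 count in a library. In MEIS1-OE 3 rose and 1 fell (edgeR, adjusted p under 0.05), against 5.52% and 3.58% of all tested genes. In MEIS2-OE 2 rose and 0 fell (edgeR; 1 fell at an unadjusted p under 0.05, and 1 rose and 0 fell with DESeq2), against 1.07% and 0.279%. In MEIS1-KO 1 rose and 1 fell, against 1.03% and 0.432%, and in MEIS2-KO 3 rose and 2 fell, against 4.04% and 5.98%. KIT was described above. CD34, a surface protein of blood progenitors and endothelium, rose from 0.533 to 1.27 CPM in MEIS1-OE (edgeR, adjusted p = 4.18e-05) and to 0.971 CPM in MEIS2-OE (edgeR, adjusted p = 0.0383; 0.0584 with DESeq2), but it also rose in MEIS2-KO (edgeR, adjusted p = 0.0141), and it had at most 38 counts in a library. PROM1, a surface protein of stem cells, had -0.16 in MEIS1-OE (edgeR, adjusted p = 0.0414) and -0.16 in MEIS2-KO (edgeR, adjusted p = 0.0408), calls that were each lost without replicate number 1, 2, 4, 5 or 6. SPARC, a matrix protein, rose in both knockouts, by 0.22 (edgeR, adjusted p = 0.0338) and 0.23 (edgeR, adjusted p = 0.00632). MN1, a transcriptional cofactor whose level marks leukemias with high BAALC, had log2 fold changes from -0.05 to 0.00 in the 4 comparisons, none of them called.

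Of 17 genes for fatty acid anchors and membrane rafts, the compartment of the BAALC protein, 1 rose and 0 fell in MEIS1-OE (edgeR, adjusted p under 0.05; 1 fell at an unadjusted p under 0.05 and 0 with DESeq2), against 5.52% and 3.58% of all tested genes. In MEIS2-OE 0 were called by edgeR, 0 by DESeq2 and 0 at an unadjusted p under 0.05, where 1.35% of all tested genes were called. In MEIS1-KO 1 rose and 0 fell (0 also at an unadjusted p under 0.05 and with DESeq2), against 1.03% and 0.432%, and in MEIS2-KO 4 rose and 1 fell, against 4.04% and 5.98%. CAV1, a structural protein of caveolae, rose in MEIS1-KO by 0.49 (edgeR, adjusted p = 0.00410) and in MEIS2-KO by 0.62 (edgeR, adjusted p = 6.48e-05). CAV2, a partner of CAV1, rose in MEIS2-KO by 0.69 (edgeR, adjusted p = 0.000352), and RFTN1, a raft protein, by 0.41 (edgeR, adjusted p = 0.00657). GAP43, a lipid-anchored protein of growth cones, rose in MEIS1-OE by 0.39 (edgeR, adjusted p = 0.0156) and in MEIS2-KO by 0.45 (edgeR, adjusted p = 0.00665). The enzymes that attach the myristoyl group, NMT1 and NMT2, had log2 fold changes from -0.03 to 0.11 in the 4 comparisons, none of them called.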

How the data were processed

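Stranded poly-A libraries were sequenced with paired reads of 100 bases. Alignment to hg19 by the authors used STAR, and HTSeq 0.6.0 gave the counts. Their methods name STAR 2.4.2a, whereas the submitters' processing notes list STAR 2.7.0a and Trimmomatic 0.39. As deposited by the authors, the values are raw counts per gene symbol, without normalization. The gene annotation and strand setting are not given in the sources used here. All columns were matched to samples by their labels.

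Genes with at least 10 counts over all libraries were fitted in 1 model of 6 groups with edgeR 4.0.16 (TMM normalization, quasi-likelihood F tests, prior count 0.125, R 4.3.3), two-sided, with p-values adjusted by Benjamini-Hochberg over 19689 genes and calls at an adjusted p under 0.05. Fold changes are on the log2 scale, and CPM are TMM-scaled. Likeness was computed for genes with a mean of at least 1 CPM, in log2 CPM (prior count 2). On simulated counts of the MEIS1-OE comparison, over 19516 genes, edgeR recovered 33 of 50 genes changed 1.25-fold, 41 of 50 changed 1.5-fold and 50 of 50 changed 2-fold, with 5 false calls. DESeq2 had 19 false calls on the same counts. The changed genes all had a mean of at least 50 counts in a library, so recovery at lower counts was not examined. BAALC counts of 1084 to 2805 per library give a counting error of 1.89% to 3.04%, and intervals cover the spread between these libraries.

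BAALC and the gene lists were chosen with earlier results of these data known. Planned tests of BAALC between the controls, the activations and the knockouts are not given, since its choice used its level in all conditions. Genes named were BAALC, the targeted genes, tested genes within 1 Mb, the 10 most and 5 least similar genes, the genes called in all 4 comparisons, and up to 4 members of each list with the most calls (of the marker lists, only some of these). MAP3K1, KLF4, DUSP4, DUSP5, DUSP6, ETV4, ETV5, EGR1, FOS, SPRY4, MN1, NMT1, NMT2, PTPRC, POU5F1, NANOG, LIN28A and the untested list members were named after their values were seen. Alternatives were RLE size factors, filterByExpr or no filter, DESeq2 1.42.0, a fit of only the groups compared, a block for the replicate number, a prior count of 2, and each replicate number left out. Libraries with the same number deviated together, with a mean correlation of 0.0993 and of 0.337 for the number with the highest mean. The number was no block in the reported fit. Gene positions came from GENCODE v44 lifted to GRCh37. Guide sequences came from the study's supplement. Other steps used Python 3.11.15 (scipy 1.17.1, numpy 2.4.6, matplotlib 3.10.9, pandas 2.3.3). ChIP-seq data, western blots and authors' differential expression tables were not used here.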

Additional observations from a re-analysis of the deposited data

Results flagged for a closer look

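Among 18 groups of 6 libraries (BAALC, MEIS1 and MEIS2 in 6 conditions), 2 held a library whose gap to the nearest other was over Dixon's 95% critical value. Chance flags about 1 in 20 such groups. MEIS1 in ctrl-OE was lowest in replicate 3, at 15.7 CPM against a median of 18.0 CPM. MEIS2 in MEIS1-OE was highest in replicate 3, at 26.1 CPM against a median of 21.6 CPM. BAALC had no such library in any condition.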

How the results depend on the processing

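Over 13 alternatives, the log2 fold change of BAALC ranged from 0.90 to 0.94 in MEIS1-OE, from 0.85 to 0.89 in MEIS2-OE, from -0.35 to -0.28 in MEIS1-KO and from -0.42 to -0.38 in MEIS2-KO. It ranged from -1.35 to -1.30 between ctrl-OE and ctrl-KO. Between the activations it ranged from 0.03 to 0.07 and between the knockouts from 0.05 to 0.12. With each replicate number left out, MEIS1-OE against MEIS1-KO ranged from -0.15 (without number 3) to -0.063 (without number 1).

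The count of genes with the directions of BAALC was 7, and it was 4 with only the groups compared, 3 to 5 with a replicate number left out (3 without number 3 and without number 5) and 0 with an absolute log2 fold change above 0.58 required in all 4 comparisons. Of the other 6 genes, FAM167A was in it under all 13 alternatives at adjusted p alone, ST8SIA4 under 12, SPRY2 under 11, and KIT, PTX3 and SSFA2 under 7. FRZB was lost (count 0) with only the groups compared, and the count was 0 to 1 with a replicate number left out. The cause was not tested. Of 1832 values for 141 called results of other named genes, 1663 kept their call, 169 lost it and 0 turned direction. The 141 include calls between ctrl-OE and ctrl-KO, where 51.4% of tested genes were called. The alternative with a prior count of 2 left the number of calls unchanged in every comparison, so the values kept under it carry no weight. With RLE size factors the relation of BAALC to MEIS1 in MEIS1-KO was still called (r = 0.919, exact permutation, adjusted p = 0.0333), and those in MEIS2-KO and both activations were again not called. In MEIS2-OE rho went from -0.0857 to 0.257. RLE gave r = -0.0932 with MEIS2 in ctrl-OE and r = 0.901 with MEIS2 in ctrl-KO.

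Libraries of the same replicate number had a mean correlation of deviations of 0.0993 (46 of 90 pairs above 0.1), against -0.0210 for others, and 14 of 36 libraries correlated best with their own number. The number with the highest mean reached 0.337. BAALC was highest in replicate 1 in ctrl-OE, MEIS2-OE, MEIS1-KO and MEIS2-KO. With the replicate block its standard error in MEIS1-KO was 0.0449, against 0.0550 in the reported fit. With the replicate block the count of genes with the directions of BAALC was 9. Genes called in MEIS1-KO numbered 287, 458 with the replicate block, 435 with DESeq2 and 104 to 254 with a number left out. In MEIS1-OE they numbered 1791 and 1148 to 2129, in MEIS2-OE 266 and 163 to 246, and in MEIS2-KO 1974 and 935 to 1990 with a number left out. The low counts of BAALC-AS2, KLF4 and CD34 limit what can be said of them.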

Other observations

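In the plot of both levels, BAALC also varied with MEIS mRNA over the ctrl-KO libraries, which received no MEIS guide. The relation was computed after it had been seen there, so the values are a description without a test. Over the 6 libraries of ctrl-KO, BAALC and MEIS1 had r = 0.937 and rho = 0.886, and r was 0.876 without the 2 libraries farthest from the median. BAALC and MEIS2 had r = 0.911 and rho = 0.829, and r was 0.453 without the 2 farthest, or 0.116 with RLE size factors. Among 13463 genes, 1.15% had an r with MEIS1 and 1.33% an r with MEIS2 as high as BAALC there. Over the 6 libraries of ctrl-OE r was 0.466 for MEIS1 and 0.0118 for MEIS2, with rho = 0.60 and rho = -0.257. Without the 2 farthest libraries r in ctrl-OE was 0.977 for MEIS1 and -0.191 for MEIS2, from 4 libraries. MEIS1 covered a range of 23.7 to 28.0 CPM in ctrl-KO, and in each relation both values come from the same library and share its scaling.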
